A study of Mus musculus with 11 samples.

Results

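The windows described here are the promoter windows of the mouse genome in which ISL1 gave a value of at least 1 both in the embryo, at E14.5, and after birth, at P9. They numbered 1043 of 22332 listed windows, or 4.67%. The assay was CUT&Tag, where a transposase brought in by the antibody cuts and labels DNA next to the bound protein, on endocrine cells of the pancreas sorted for the tdTomato reporter. All ISL1 cells were Control, that is Isl1loxP/+;Neurod1-cre, so 1 copy of Isl1 was floxed and exposed to Cre in the cells used to map its protein. The E14.5 values came from 2 samples given as a single column and the P9 values from 1 library, so neither stage has a replicate spread. The histone marks H3K27ac and H3K27me3 were profiled at P9 in 2 Control and 2 Isl1CKO (Isl1loxP/loxP;Neurod1-cre) libraries per mark. Every mouse carried Neurod1-cre and the Ai14 tdTomato reporter on a C57BL/6 background, littermates of both sexes were used, and each P9 library pooled 3 to 4 pancreases and about 20000 cells. Cre was driven by Neurod1, so recombination and the reporter cover the Neurod1 lineage as a mixture of endocrine cell types, and a change in the mix of types cannot be told apart from a change within a type.

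ISL1 is a LIM-homeodomain transcription factor needed for the maturation and survival of islet endocrine cells, and it works with LDB and SSBP cofactors and with other islet factors. H3K27ac is laid down at active promoters and enhancers. H3K27me3 is the mark of Polycomb repressive complexes, which hold developmental regulators of other lineages silent, often over wide domains. Homeodomain proteins read short DNA cores, of which TAAT (ATTA on the other strand) is the commonest.

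The annotated promoters of the 6 members with the highest summed ISL1 value that have a single RefSeq promoter entry, taken among the members ranked highest at a stage or held by an islet list, are printed first, as the promoter sequence of genes that head the list. Each line gives the 250 bases before the annotated start, 5′ to 3′ on the gene's strand, from RefSeq on GRCm38.p6, and capitals mark every TAAT core on either strand. The ISL1 windows are on another build, so these stretches were not placed in the windows. Fev lies at chr1:74885409-74885658, minus strand. E130018O15Rik lies at chr5:35388477-35388726, minus strand. Nkx1-1 lies at chr5:33434091-33434340, minus strand. Meis2 lies at chr2:116064620-116064869, minus strand. Osmr lies at chr15:6874314-6874563, minus strand. Nkx2-2 lies at chr2:147186403-147186652, minus strand.
Fev: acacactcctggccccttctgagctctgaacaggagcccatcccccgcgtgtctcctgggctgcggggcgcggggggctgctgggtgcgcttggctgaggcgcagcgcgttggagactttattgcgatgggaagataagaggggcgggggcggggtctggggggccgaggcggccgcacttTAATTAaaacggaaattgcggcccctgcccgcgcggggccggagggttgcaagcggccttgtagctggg
E130018O15Rik: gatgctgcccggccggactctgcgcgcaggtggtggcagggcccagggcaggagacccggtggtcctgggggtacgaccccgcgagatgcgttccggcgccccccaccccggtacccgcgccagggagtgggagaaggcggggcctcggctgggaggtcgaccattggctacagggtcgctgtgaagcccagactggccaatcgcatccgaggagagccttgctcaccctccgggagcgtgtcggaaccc
Nkx1-1: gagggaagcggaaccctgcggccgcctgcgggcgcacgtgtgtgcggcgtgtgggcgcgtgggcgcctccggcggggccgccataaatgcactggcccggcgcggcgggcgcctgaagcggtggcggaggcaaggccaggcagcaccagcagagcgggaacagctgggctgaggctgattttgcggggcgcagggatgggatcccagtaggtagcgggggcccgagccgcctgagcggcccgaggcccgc
Meis2: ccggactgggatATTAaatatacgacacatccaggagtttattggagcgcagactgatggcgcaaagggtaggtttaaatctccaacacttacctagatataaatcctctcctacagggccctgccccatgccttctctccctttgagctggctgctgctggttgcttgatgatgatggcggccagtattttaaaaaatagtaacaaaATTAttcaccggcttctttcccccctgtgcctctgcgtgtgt
Osmr: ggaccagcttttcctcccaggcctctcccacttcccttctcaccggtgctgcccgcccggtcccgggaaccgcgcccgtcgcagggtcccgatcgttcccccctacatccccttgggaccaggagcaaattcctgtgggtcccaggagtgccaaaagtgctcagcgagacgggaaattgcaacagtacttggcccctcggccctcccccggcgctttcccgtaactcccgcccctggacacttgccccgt
Nkx2-2: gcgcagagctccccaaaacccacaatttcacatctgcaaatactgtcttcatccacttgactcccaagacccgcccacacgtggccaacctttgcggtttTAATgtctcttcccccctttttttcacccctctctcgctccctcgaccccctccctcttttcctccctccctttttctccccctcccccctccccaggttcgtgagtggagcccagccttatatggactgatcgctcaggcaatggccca

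The palindrome TAATTA, which holds overlapping TAAT cores on both strands, occurred at Fev, beginning 69 bases before the start. It was found in 4.84% of the 32851 promoter stretches of the same length in the table. A TAAT core of any kind, found in 54.9% of all stretches, was present 2 times each at Fev and Meis2 and once at Nkx2-2, and these letters were not in the stretches printed for E130018O15Rik, Nkx1-1 and Osmr. The fuller LIM-homeodomain letters CTAATG (6.36% of all stretches) were in none of the 6. The CCAAT box (33.8%) was matched 2 times at E130018O15Rik and once at Meis2, and GGGCGG, the GC box (32.7%), 2 times each at Fev and Osmr and once at Nkx2-2. GC content ran from 47.6% at Meis2 and 56.4% at Nkx2-2 to 66.0% at Osmr, 68.0% at Fev, 71.6% at E130018O15Rik and 75.2% at Nkx1-1, beside a median of 52.4% over the table. Of the other motifs searched on both strands, CAGATG (14.4%) was matched once, at Nkx2-2, and CCGGAAG (6.91%) and the palindrome TGACGTCA (1.55%) had no match in the 6. By symbol 762 of the 1043 members (73.1%) had an entry, too few for a comparison of all members' promoters.

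The ISL1 values are whole numbers whose unit the file does not state. The members were chosen by these values, which are therefore given as a description. Positive windows numbered 8426 at E14.5 (37.7% of windows) and 1978 at P9 (8.86%). The members made up 12.4% of the E14.5-positive windows and 52.7% of the P9-positive ones. The median member had a value of 2 at E14.5 and 1 at P9. At P9, 909 members (87.2%) stood at 1, 110 at 2 and 24 at 3 or more. At the threshold itself, 421 members had 1 at both stages, while just outside it 3872 windows had 1 at E14.5 and 0 at P9, and 862 had 0 at E14.5 and 1 at P9. The E14.5 value was the larger in 539 members, the P9 value in 46, and 458 had equal values. No 2 member windows overlapped.

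**Figure D1:**
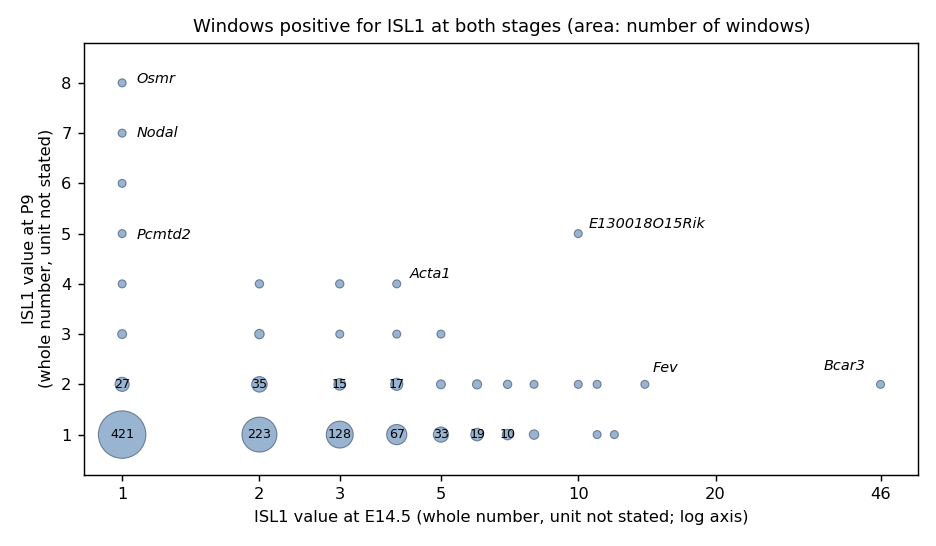
ISL1 values of the 1043 member windows at E14.5 (x axis, log scale) and P9 (y axis), each point a pair of values with area set by its number of windows, printed where 10 or more. Most windows sit at a P9 value of 1 (909 of 1043), and Bcar3 (46 and 2) and the P9-high windows of Osmr and Nodal (1 and 8, 1 and 7) stand at the edges.

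The highest E14.5 value, 46, belonged to the window of Bcar3, an adaptor protein of integrin and Src signalling, with 2 at P9 (chromosome 3, 122084786 to 122090785). Fev, an ETS factor of serotonergic neurons and endocrine progenitors, had 14 and 2 (chromosome 1, 74921579 to 74927578). The homeobox genes Nkx1-1 (12 and 1), Tlx2 (11 and 2) and Meis2 (11 and 1) followed, with E130018O15Rik, a noncoding transcript (10 and 5). At P9 the order was another one. Osmr, the oncostatin M receptor, had 1 at E14.5 and 8 at P9 (chromosome 15, 6901451 to 6907450). Nodal, a TGF-beta family morphogen of the early embryo, had 1 and 7, Mtpap, the mitochondrial poly(A) polymerase, 1 and 6, Pcmtd2 1 and 5, and Acta1, skeletal muscle actin, 4 and 4. E130018O15Rik, at 10 and 5, was high at both stages. Several of these windows are shared between genes. Those of Bcar3, Tlx2 and E130018O15Rik are listed with 4 genes, those of Meis2, Mtpap and Acta1 with 3 and that of Nkx1-1 with 2. These coordinates and all that follow are on GRCm39, the build given by the submitters.

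Islet regulators were a visible part of the members. Of 33 islet transcription factors with a window, 28 were positive at E14.5, 14 at P9 and 12 at both, or 36.4% against 4.67% of all windows, among them Meis2, Lmx1a, Lmx1b, Prox1, Rfx3, Neurod1, Foxa2, Gata4, Glis3, Rfx7 and Myt1l. Beta cell identity gave 2 of 20 genes, Nkx2-2 (7 and 1) and Nkx6-1 (5 and 1), both homeobox factors that beta cells need. Alpha cell identity gave 2 of 13, Fev among them. Delta, PP and epsilon cell identity gave 0 of 11 and the endocrine progenitor list 0 of 19, although 14 of those 19 were positive at E14.5. That list does not hold the members Fev, Nkx2-2 and Neurod1, which are counted under other lists here. Hormone secretion gave 1 of 31, Cplx2 (4 and 1), which clamps vesicle fusion, and incretin and other receptors 2 of 21, Sstr1, a somatostatin receptor, and Ffar4, a fatty acid receptor, each with 2 and 1. Of 22 genes of LIM complexes, 3 were members, the LIM-homeodomain factors Lmx1a (6 and 1) and Lmx1b (3 and 2) and the cofactor Ssbp2 (1 and 1). These lists were chosen with earlier results of these data known, and their counts describe the windows only.

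Families of developmental regulators, which share members such as Meis2, Lmx1a, Nkx2-2, Foxa2 and Neurod1 with the islet lists, also had shares above that of all windows. Homeobox genes gave 47 members of 178 windows (26.4%), among them Nkx1-1, Tlx2, Meis2 and Hoxa2. Forkhead genes gave 12 of 43, T-box genes 5 of 15 (Tbx2, Tbx20, Eomes, Tbx1 and Tbx4), bHLH genes 10 of 56 (Hand1, Neurog2 and Olig2 with Neurod1 among them) and secreted Wnt, FGF, BMP and hedgehog-type ligands 15 of 82, such as Nodal, Gdf7, Ihh and Dhh. Of 52 Polycomb-regulated developmental genes, 14 were members. Housekeeping families stayed near the share of all windows, with 4 of 57 cytosolic ribosomal protein genes and 3 of 75 oxidative phosphorylation genes. Zinc finger genes were also near it, with 20 of 374. Olfactory receptor genes gave 3 of 1148 (0.261%). Members made up 7.37% of the windows of chromosome 19, 1.75% of those of X and none of those of Y.

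Wider windows were more often members. Windows span 6000 bp around a start and are wider where neighbouring starts were merged, and 22.4% of members were wider, against 19.5% of windows positive at E14.5 only, 12.0% at P9 only and 7.45% at neither. Members were 4.13% of the windows of 6000 bp and 21.0% of the 138 wider than 12000 bp. The median length of the listed gene was 18830 bp for members, 23196 bp at E14.5 only and 9367 bp at neither. A wide window is listed under 1 gene, and 470 members (45.1%) were listed with a single gene.

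The histone libraries held 681047 to 1815511 counts in regions for H3K27ac and 1202276 to 2276887 for H3K27me3. Among the H3K27ac libraries Control replicate 2 was least like the rest, with r = 0.451 to 0.497 to the others across regions against 0.680 to 0.722 among them. Of 10 endocrine markers, 7 had an H3K27ac promoter region, with a summed level of 879 and 747 CPM in Control and 805 and 783 in Isl1CKO, and Ins2, Gcg and Sst had none listed. Of 4 endothelial, 4 mesenchymal, 4 immune and 3 glial markers none had one, of acinar markers 1 of 6 (Bhlha15) and of ductal markers 1 of 5 (Sox9, 12.4 and 38.4 CPM in Control and 6.09 and 8.43 in Isl1CKO). Levels are given as CPM, that is counts relative to all counts in the regions of a library, scaled by TMM factors. The targeted gene can be followed here only through its chromatin. Its own window had ISL1 values of 9 at E14.5 and 0 at P9, so Isl1 is no member, and its promoter H3K27ac measured 63.3 and 42.8 CPM in Control and 45.6 and 45.7 in Isl1CKO. An H3K27ac region in an intron of Isl1 measured 19.3 and 21.9 against 7.61 and 2.81 (edgeR adjusted p = 0.865). At all other H3K27ac regions assigned to Isl1 the genotypes overlapped, such as an exon region with 21.6 and 18.1 CPM against 44.1 and 12.6. Such marks need not report an exon deletion, so this does not check the genotype labels.

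Active and Polycomb chromatin were both frequent at the members. An H3K27ac promoter region was listed for 639 of the 1043 member genes, 61.3% (95% Wilson interval 58.3 to 64.2), close to the 63.5% (62.4 to 64.6) of windows positive at E14.5 only and above the 33.9% (30.9 to 37.0) at P9 only and 22.9% (22.1 to 23.6) at neither. An H3K27me3 promoter region was listed for 366 members, 35.1% (32.3 to 38.0), against 18.5% (17.6 to 19.4) at E14.5 only, 19.3% (16.9 to 21.9) at P9 only and 9.1% (8.6 to 9.6) at neither. H3K27me3 regions of at least 5000 bp were listed for 18.3% (16.1 to 20.8) of member genes against 6.3%, 5.9% and 1.5%. The intervals treat windows as independent and cover counting error only, and no set test was made. The H3K27me3 difference was as large in windows of exactly 6000 bp, 41.2% of 809 members against 21.3% of 5946 windows at E14.5 only, and in windows listed with a single gene, 48.3% against 25.1%. H3K27ac was lower in members in those subsets, 61.7% (58.3 to 65.0) against 65.6% (64.4 to 66.8) in windows of 6000 bp and 65.5% (61.1 to 69.7) against 71.4% (69.9 to 72.9) in windows listed with a single gene, where the intervals did not overlap.

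**Figure D2:**
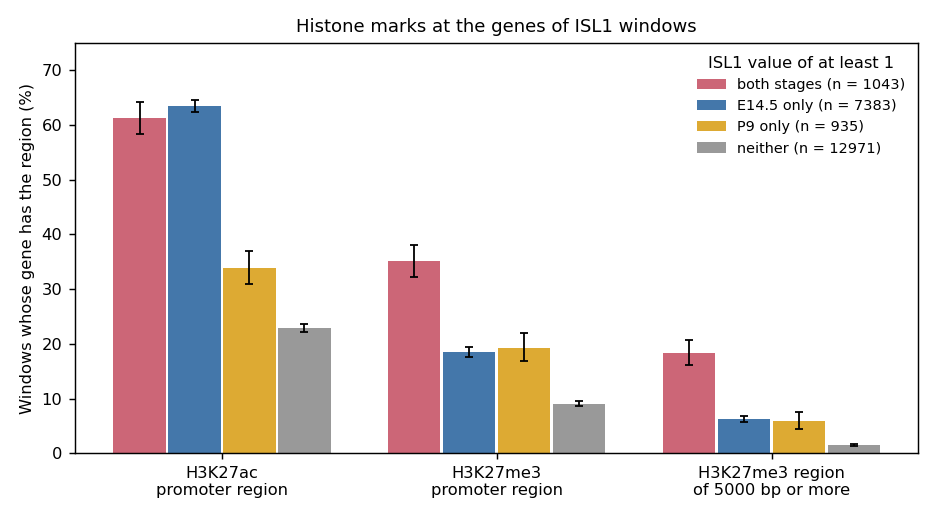
Share of windows (y axis, percent) whose gene has an H3K27ac promoter region, an H3K27me3 promoter region or an H3K27me3 region of at least 5000 bp, by ISL1 class, with 95% Wilson intervals as error bars. Over all windows, members lie near windows positive at E14.5 only in H3K27ac (61.3% and 63.5%) and stand above every other class in H3K27me3 (35.1%).

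The height of the E14.5 value did not order the H3K27me3 share. Members with an E14.5 value of 1, 2, 3, 4 and 5 had an H3K27me3 promoter region in 34.1%, 33.5%, 39.7%, 37.2% and 42.1% of cases, and those with 6 or more in 15 of 50. Windows positive at E14.5 only had 16.1% to 19.7% at the same values, and the intervals of the classes overlapped at 6 or more. Along the P9 value the share of members was 33.4% at 1, 43.6% at 2 and 58.3% (14 of 24) at 3 or more, beside 17.7%, 37.7% (23 of 61) and 33.3% (4 of 12) of windows positive at P9 only. H3K27ac at the members ran from 57.0% to 68.4% over the E14.5 values. It lay below windows positive at E14.5 only at each value from 2 upward, with overlapping intervals at every one.

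**Figure D3:**
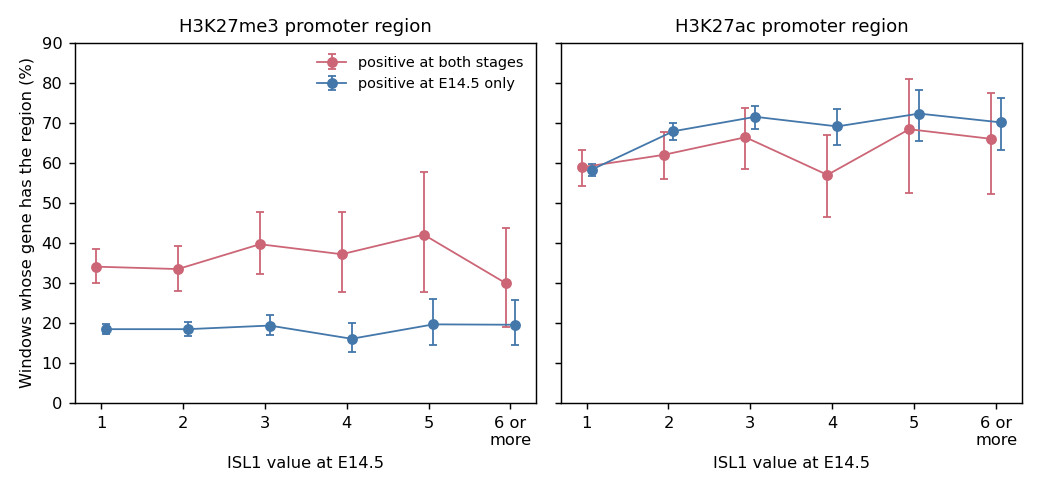
Share of windows (y axis, percent, 95% Wilson intervals) with an H3K27me3 (left) or H3K27ac (right) promoter region by the ISL1 value at E14.5 (x axis), for windows positive at both stages and at E14.5 only. The H3K27me3 points of members lie above those of the other class, which run from 16.1% to 19.7%, at every value, with overlapping intervals at 6 or more.

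By promoter, 486 members (46.6%) had H3K27ac alone, 153 (14.7%) both marks, 213 (20.4%) H3K27me3 alone and 191 (18.3%) neither. These counts follow the gene each region is assigned to. Of the 191 windows in the last group, 97 overlapped an H3K27ac region and 55 an H3K27me3 region by position, while 57 overlapped no region of either mark. The window of Bcar3 held an H3K27ac region assigned to Gm40190, with 32.4 and 4.93 CPM in Control and 53.3 and 37.9 in Isl1CKO, and no H3K27me3 region. Promoters with H3K27ac alone had median levels of 57.9, 50.4, 60.9 and 57.6 CPM in Control 1, Control 2, Isl1CKO 1 and Isl1CKO 2, against 23.2, 25.2, 21.3 and 21.8 where both marks were listed. H3K27me3 was in turn lower where both were listed, with medians of 85.5, 81.6, 62.8 and 69.7 CPM, than where it stood alone, with 240, 245, 236 and 230. Both marks in sorted cells may come from the same or from different cells, and the libraries do not tell these apart.

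The islet regulators among the members fell on both sides. Nkx2-2 carried H3K27ac over its promoter (chromosome 2, 147035032 to 147037842) at 156.7 and 103 CPM in Control and 167.4 and 138 in Isl1CKO, and Nkx6-1 (chromosome 5, 101810267 to 101813907) at 113 and 105 against 141 and 122. The Nkx2-2 libraries overlapped between genotypes, and both Isl1CKO libraries of Nkx6-1 lay above both Control libraries without passing the test. Foxa2, a pioneer factor of endoderm, measured 165 and 75.1 in Control and 166 and 92.1 in Isl1CKO. Neurod1, the bHLH factor whose promoter drives the Cre, measured 72.6 and 83.9 against 92.8 and 92.1. A Neurod1 promoter region nearer the start overlapped between genotypes, with 68.7 and 48.8 CPM against 77.6 and 50.6. Rfx3, an islet and ciliary factor, measured 103 and 61.9 against 113 and 92.8. The windows of Rfx7 and Glis3 held H3K27ac regions of 111 and 59.2 and of 88.0 and 68.5 CPM in Control that the file assigns to noncoding neighbours. At Foxa2 the 2 Control libraries lay further apart than the means of the genotypes.

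**Figure D4:**
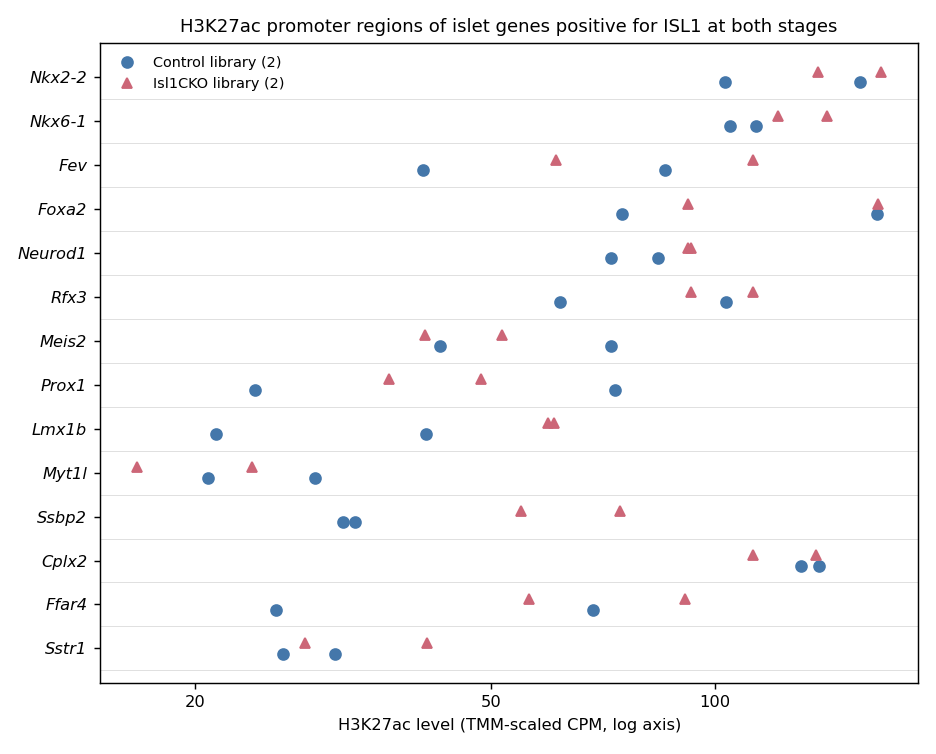
H3K27ac level (x axis, TMM-scaled CPM, log scale) at the promoter regions of member islet genes, with 2 Control libraries (circles) and 2 Isl1CKO libraries (triangles) per gene. Nkx2-2 and Foxa2 reach the highest levels, Control libraries often lie as far apart as the genotypes, and none of these regions passed the test.

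Other factors of the same list carried H3K27me3 instead. Lmx1a, a LIM-homeodomain factor of midbrain neurons, had an 11286 bp H3K27me3 domain at 662 and 731 CPM in Control and 726 and 655 in Isl1CKO. Gata4, a factor of early endoderm and heart, had a 9091 bp domain at 407 and 448 against 372 and 507. At both genes the libraries of the genotypes overlapped. Fev carried both marks. Its H3K27ac stood at 85.7 and 40.6 CPM in Control and 113 and 61.1 in Isl1CKO, and its H3K27me3 at 8.81 and 85.2 against 11.1 and 24.7, with the highest H3K27me3 in Control replicate 2. A further H3K27ac region in the Fev window went the other way, with 71.8 and 65.2 CPM in Control and 39.6 and 45.0 in Isl1CKO. The Lmx1b window held a 5948 bp H3K27me3 region assigned to C130021I20Rik, at 124 and 138 CPM against 78.6 and 94.4. Lmx1b itself carried H3K27ac at 40.9 and 21.4 CPM against 60.9 and 59.7, and H3K27me3 at 20.3 and 20.0 against 9.40 and 11.5. In each mark both Isl1CKO libraries of Lmx1b lay on 1 side of both Control libraries, upward in H3K27ac and downward in H3K27me3, and neither difference passed the test (edgeR adjusted p = 0.867 and 1). Of the cofactor and secretion genes, Ssbp2 measured 31.6 and 32.9 CPM of H3K27ac against 74.6 and 54.8 (edgeR adjusted p = 0.865). A further Ssbp2 promoter region overlapped between genotypes, with 47.9 and 29.6 CPM against 24.3 and 38.6. Cplx2 measured 130 and 138 CPM of H3K27ac against 137 and 112. Ffar4 measured 68.7 and 25.8 against 91.3 and 56.2, and Sstr1 30.9 and 26.3 against 41.1 and 28.1. Sstr1 also carried promoter H3K27me3, at 64.3 and 85.2 CPM against 39.3 and 64.2, where the groups overlapped on library totals. Another 3 factors with H3K27ac had overlapping libraries at the promoter region of largest mean count. Meis2 measured 72.6 and 42.8 CPM there against 51.7 and 40.8. Prox1, a homeobox factor of endocrine and lymphatic cells, measured 73.3 and 24.1 against 36.5 and 48.5. Myt1l, a neuronal zinc finger factor, measured 20.8 and 29.0 against 16.7 and 23.9. A further promoter region in the Meis2 window did not overlap, with 34.7 and 16.4 CPM against 66.9 and 54.1. Further Myt1l promoter regions went both ways, such as 13.9 and 21.4 against 4.56 and 7.73, and 23.2 and 14.3 against 30.4 and 29.5. None of these regions passed edgeR's test. Prox1 also had an H3K27me3 promoter region, at 18.5 and 7.05 CPM against 17.9 and 37.4.

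Many members of the developmental families carried H3K27me3. Of the 47 homeobox members, 34 had an H3K27me3 promoter region, 31 had an H3K27me3 region of any kind of at least 5000 bp and 8 had an H3K27ac promoter region. The homeobox genes outside the members were alike in this, with 87 of 131 (66.4%) against 72.3%, so a high H3K27me3 share was shared by the family. Of the 15 ligand members 13 had an H3K27me3 promoter region, beside 43 of 67 other ligand genes (64.2%), and of the 12 forkhead members 6, beside 9 of 31 (29.0%). All 4 member genes of the list that beta cells keep silent, Cxcl12, Pdgfra, Ldha and Maf, had one, as did 12 of the other 21 (57.1%), with Ldha, lactate dehydrogenase A, at 762 and 798 CPM in Control and 678 and 586 in Isl1CKO. Both Isl1CKO values were under both Control values at Ldha. In other lists the H3K27me3 promoter share was lower in members than in the remaining genes. It was 6 of 10 bHLH members beside 33 of 46 (71.7%), and 10 of 14 Polycomb-regulated members beside 28 of 38 (73.7%). Islet transcription factors gave 5 of 12 beside 11 of 21 (52.4%), and beta cell identity 0 of 2 beside 9 of 18. Members thus did not exceed the rest of their list throughout. The highest Control level of all members was at E130018O15Rik, a 32941 bp domain (chromosome 5, 35532881 to 35565821) at 2273 and 2331 CPM in Control and 2153 and 2080 in Isl1CKO. The homeobox gene Lbx1, a regulator of muscle and spinal cord precursors, followed with 2037 and 2227 against 1656 and 1617 over 25896 bp, then Prdm12, a regulator of sensory neurons, with 1643 and 1732 against 1386 and 1265, and Nkx1-1 with 1575 and 1650 against 1270 and 1443. At these 4 domains both Isl1CKO values were under both Control values. On library totals, without TMM factors, this held at Lbx1 and Prdm12, while the groups overlapped at E130018O15Rik and Nkx1-1. Nodal, high in ISL1 at P9, had a 6467 bp domain at 240 and 345 CPM against 265 and 261. Osmr had H3K27me3 at 85.5 and 116 CPM against 103 and 135, and its H3K27ac region measured 36.7 CPM in Control replicate 2 and 0.703 to 1.52 in the other 3 libraries.

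The genotype comparison asked whether chromatin at the member genes differed in Isl1CKO cells. For each mark it took every region assigned to a member gene, inside its ISL1 window or not. In H3K27ac the members did not stand out from other regions. Of 1332 H3K27ac regions joined to member genes, 1290 passed the filter on low counts and edgeR's quasi-likelihood test called 0 at an adjusted p below 0.05, where 0.0% of all 30036 tested regions were called. At an unadjusted p below 0.05 there were 72 (5.58%, beside 5.83% of all regions), 42 higher and 30 lower in Isl1CKO, where all regions had 2.71% higher and 3.12% lower. DESeq2 called 1, which was higher, beside 0.109% of all regions with an adjusted p (0.079% higher and 0.0301% lower). The count turned on which Control library was kept: edgeR called 41 of the 1290 without Control replicate 1 (beside 3.0% of all regions) and 1 without Control replicate 2 (beside 0.0499%). Both Isl1CKO libraries lay above both Control libraries in 254 member regions (19.7%, beside 18.1%) and below in 229 (17.8%, beside 19.4%). With 1 region per gene, the median log2 fold change over 684 member genes was 0.07, beside 0.06 over all genes with a window. In the authors' deposited table, member regions at an adjusted p below 0.05 that were higher in Isl1CKO numbered 414 (31.1%, beside 27.8% of all regions), and 91 (6.83%, beside 9.25%) were lower.

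The region called by DESeq2 belonged to Prr35, a proline-rich protein, and lay upstream of its start, in the 5′ UTR of a transcript (chromosome 17, 26182144 to 26184504). It lay outside the ISL1 window of Prr35 (26168540 to 26174539). It measured 30.9 and 26.3 CPM in Control and 138 and 115 in Isl1CKO, 2.15 on the log2 scale (SE 0.40), at an adjusted p of 0.000608 by DESeq2 and 0.734 by edgeR. The groups did not overlap there. The regions named below at Dgkz, Ccdc85c, Kalrn, Lmx1a and Gpr25 also lay outside the ISL1 windows of their genes. The next smallest unadjusted p values among higher regions were at Dgkz, a diacylglycerol kinase (27.02 and 29.6 against 88.2 and 86.4 CPM), Lmnb1, lamin B1 (79.5 and 71.8 against 174.97 and 160), and an intron of Ccdc85c (17.0 and 19.7 against 89.8 and 40.1), each with an edgeR adjusted p of 0.838 to 0.846. At the promoters of Dgkz and Ccdc85c the libraries overlapped. Among lower regions, an intron of Kalrn, a guanine nucleotide exchange factor, had 42.5 and 45.5 against 4.56 and 11.2 CPM. An intron region of Lmx1a, 65433 bp from its start, had 13.1 and 39.5 against 3.04 and 3.51, -2.96 on the log2 scale (SE 0.99), at an edgeR adjusted p of 0.846. A region assigned to Gpr25, an orphan receptor, had 11.6 and 33.4 against 0 and 2.11, a ratio of summed counts per effective library of 0.0592 (exact 95% counting interval 0.0119 to 0.180), and one at Zfp655 had 12.4 and 18.1 against 0 and 0.703, a ratio of 0.0306 (0.00076 to 0.179). The main promoter regions of the same genes overlapped between genotypes, with 88.0 and 87.1 against 143 and 82.9 CPM at Zfp655 and 79.5 and 36.2 against 66.9 and 76.6 at Kalrn.

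In H3K27me3 no member region passed edgeR's test either, 0 of 1057 beside 0.0% of all 19434, yet the member regions lay lower in Isl1CKO more often than regions at large with TMM scaling. At an unadjusted p below 0.05 there were 77 (7.28%, beside 4.34% of all), of which 70 were lower and 7 higher, beside 2.98% of all regions lower and 1.35% higher. DESeq2 called 15, all lower, beside 0.673% of all regions (0.663% lower and 0.0104% higher). The 2 Isl1CKO libraries both ran lower than either Control library in 249 member regions (23.6%, beside 16.7%) and above in 165 (15.6%, beside 18.7%). Among regions of at least 5000 bp the count below was 108 of 211 (51.2%, beside 38.6%) and the count above 16 (7.58%, beside 7.15%). With 1 region per gene, 295 of 420 member genes measured lower (70.2%, beside 60.3% of all genes with a window), both Isl1CKO libraries lay below in 154 and above in 32 (beside 25.4% and 12.2%), and the median log2 fold change was -0.20, beside -0.14. With a loess correction on abundance the medians were -0.085 for members, -0.083 for all genes with a window and -0.091 at E14.5 only, so the members did not lie lower than other genes in that setting. With TMM factors, windows positive at E14.5 only had a median of -0.17 and at P9 only -0.19, and the difference between these classes was not tested. In the authors' deposited table, member regions lower at an adjusted p below 0.05 numbered 412 (38.2%, beside 29.6%), and 69 (6.39%, beside 9.17%) higher.

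The size of these shifts depends on the scaling. Without TMM factors, on library totals alone, the median over all H3K27me3 regions moved from 0.05 to 0.16 and that of the members to -0.09. Member regions with both Isl1CKO libraries below then numbered 190 of 1057 (beside 12.9% of all), with 200 above (18.9%, beside 22.1%). On that scale member regions no longer lay below more often than above, although their share below exceeded that of all regions. At 5000 bp or more, 75 member regions lay below (35.5%, beside 24.4%). The share of all H3K27me3 counts that fell in member regions, which needs no scaling factor, was 12.4% and 12.5% in Control and 11.7% and 11.8% in Isl1CKO (12.4 ± 0.0351 and 11.7 ± 0.0714, SD, n = 2). The groups did not overlap, and the exact permutation test, two-sided, gave p = 0.333, the smallest that 2 against 2 libraries allow. Over all regions of at least 5000 bp the share was 56.7% and 56.9% in Control and 54.0% and 53.7% in Isl1CKO, so the difference was not particular to members. For H3K27ac the member share was 5.14% and 4.86% against 5.24% and 5.16%.

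The 15 regions called by DESeq2 belonged to 15 genes, 13 were at least 5000 bp wide and 12 were promoter regions. Their edgeR adjusted p ran from 0.835 to 1. Outside 1 region with 0 counts in Isl1CKO, near Cdk5r2, the log2 fold changes ran from -0.97 to -0.35. The lowest was at Tnfaip2, a TNF-induced gene, whose 6930 bp promoter domain (chromosome 12, 111408352 to 111415281) measured 382 and 412 CPM in Control and 194 and 211 in Isl1CKO, -0.97 on the log2 scale (SE 0.20), at an adjusted p of 0.000178 by DESeq2 and 0.835 by edgeR. Nfatc1, a calcineurin-responsive factor that beta cells use, measured 302 and 321 against 147 and 177. A region in the 3′ UTR of Wnt10a, a Wnt ligand, measured 406 and 395 against 185 and 239, while its promoter domain measured 1147 and 890 against 818 and 794. Pou3f1, a POU factor, measured 768 and 688 against 470 and 471, Smad6, an inhibitor of BMP signalling, 520 and 412 against 270 and 263, and Neurog2, a proneural factor, 600 and 683 against 466 and 437. Insl3, a relaxin family hormone with ISL1 values of 5 and 3, measured 1019 and 883 against 662 and 658. At each of these regions both Isl1CKO libraries were below both Control libraries. A call as lower from the same libraries makes this likely, so it adds no support.

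**Figure D5:**
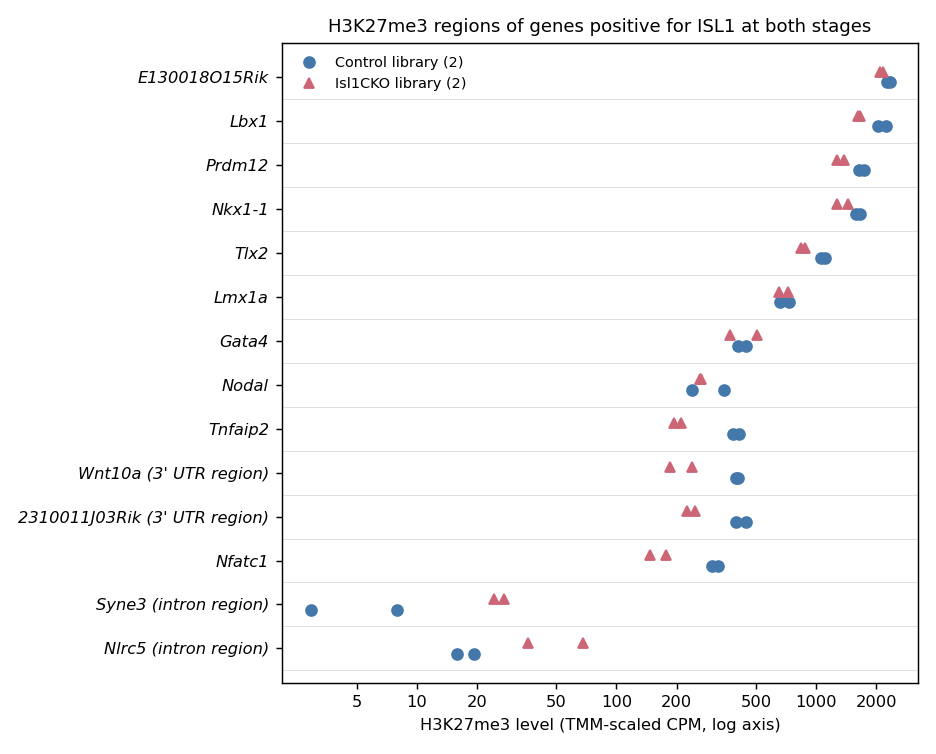
H3K27me3 level (x axis, TMM-scaled CPM, log scale) of named member regions, with 2 Control libraries (circles) and 2 Isl1CKO libraries (triangles) each. The triangles lie below the circles at E130018O15Rik and Nkx1-1 (where the groups overlap on library totals), Lbx1, Prdm12, Tlx2, Tnfaip2, Wnt10a, 2310011J03Rik and Nfatc1, overlap them at Lmx1a, Gata4 and Nodal, and lie above them at Syne3 and Nlrc5.

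The homeobox members leaned the same way without a call by edgeR. Of 39 with a tested H3K27me3 region 33 measured lower and 6 higher, a split of 28 and 11 on library totals, beside 2535 lower of 4203 genes with a window, or 2170 on library totals. Both Isl1CKO libraries lay below in 20 (51.3%, beside 25.4% of all genes with a window and 36.7% of all members). Member regions of at least 5000 bp had a like share, 51.2%. On library totals both lay below in 10 homeobox members (25.6%, beside 18.7% of all and 26.9% of all members). Tlx2 measured 1056 and 1103 CPM in Control and 841 and 882 in Isl1CKO, Dbx1 679 and 839 against 502 and 567, and Msx1 1436 and 1429 against 1302 and 1237. Dlx2 went the other way, with 280 and 241 against 297 and 296, and Hoxb1 measured 293 and 466 against 431 and 468. Among regions with higher H3K27me3 in both Isl1CKO libraries, the smallest unadjusted p was at an intron of Acp3, prostatic acid phosphatase, with 0 counts in both Control libraries and 12.4 and 9.35 CPM in Isl1CKO, at least 10.3-fold higher against a floor of 3 counts over the Control group. An intron of Syne3, a nuclear envelope protein, had 7.93 and 2.94 against 24.4 and 27.2 CPM, and one of Nlrc5, a regulator of MHC class I genes, 19.4 and 15.9 against 35.9 and 68.0. The promoter regions of these genes overlapped between genotypes, with 129 and 49.3 against 85.0 and 45.9 CPM at Syne3, 11.5 and 23.5 against 12.8 and 3.83 at Nlrc5 and 5.29 and 12.3 against 5.55 and 4.25 at Acp3. Near Pou4f3 a distal region had 0.881 and 0 against 6.84 and 18.7 CPM, a ratio of summed counts of 36.3 (exact 95% counting interval 6.27 to 1456), while its promoter domain measured 784 and 913 against 799 and 712. None of these passed edgeR's test (adjusted p = 1).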

How the data were processed

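CUT&Tag was done by the authors on sorted cells. Per the submitters' processing notes, edgeR 4.0.16, ChIPseeker 1.38.0, MACS2 2.2.6, Picard 2.27.4 and Bowtie2 2.3.5.1 were used on GRCm39, with no roles given. The deposited histone files hold raw counts per region and library, with the authors' log2 fold changes, p-values and a likelihood ratio score. The deposited ISL1 score is a whole number per window with no stated unit. Repeated entries (108 of 31587 for H3K27ac, 90 of 20176 for H3K27me3) were dropped. Chromosome numbers in the histone files followed alphabetical order. Relabelled, they matched the ISL1 file for 100.0% of the regions whose gene has a window, against 7.48% and 9.25% as written.

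Windows and regions were joined by gene identifier. Counts of all regions of a mark were fitted with edgeR 4.0.16 (filterByExpr, TMM, quasi-likelihood test, Benjamini-Hochberg adjustment, threshold 0.05) in R 4.3.3, after a test on simulated data. DESeq2 1.42.0 and limma 3.58.1 served alternatives. For values with 1 region per gene, the promoter region of largest mean count was taken, or the largest of any kind where no promoter region was listed. Labels do not tie library numbers to litters, so p-values measure the spread between pools. Counting intervals cover counting error only.

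Named genes were the 6 highest at each stage, the members of the islet lists, per mark and direction the 4 regions of smallest unadjusted p whose groups did not overlap (where fewer than 3 were called), and the 4 highest Control levels. Regions called by DESeq2, family members and other examples were named after their values were seen. The members and lists were chosen with earlier results of these data known. Promoters on chromosome 18 were not considered for printing. Some genes that the rule names are not reported here.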

Additional observations from a re-analysis of the deposited data

How the results depend on the processing

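For H3K27ac, member regions called numbered 0 by edgeR, 1 by DESeq2, 505 in the authors' deposited table and 0 to 41 when each library was left out, where the lone sample is assumed to vary like the other group. In the authors' deposited table these were 505 of 1332 member regions, where 37.0% of all H3K27ac regions were called, and DESeq2 called 0.109% of all. The median log2 fold change of member genes was 0.07, beside 0.06 over all genes with a window. It was 0.013 to 0.21 when each library was left out (beside 0.005 to 0.18). In the authors' deposited table it was 0.62 (beside 0.59), and with a loess correction on abundance -0.02 (beside -0.006). For H3K27me3, calls numbered 0 by edgeR, 15 by DESeq2 and 481 in the authors' deposited table. The median of -0.20 (beside -0.14 over all genes with a window) became -0.089 on library totals (beside -0.017). With the loess correction it was -0.085 (beside -0.083), and in the authors' deposited table -0.75 (beside -0.67). When each library was left out it was -0.25 to -0.14 (beside -0.18 to -0.07). Over all regions joined to a member the median was -0.10, beside 0.05 over all regions. The cause of these differences was not tested. With the replicate number as a block, calls were 0 in both marks and the medians 0.09 and -0.20, beside 0.09 and -0.15. Deviations of same-numbered libraries had r = 0.050 for H3K27ac and -0.014 for H3K27me3, so the numbers were not shown to pair the libraries. At an ISL1 value of at least 2 at both stages, 98 members were left. The H3K27ac share of 61.3% became 72.0% by overlap with the window. The share with any H3K27me3 region, 41.0%, became 35.1% for promoter regions. In alternatives chosen after seeing the data, the H3K27ac share was 65.5% in windows listed with a single gene, and the H3K27me3 share 48.0% in windows of 6000 bp and 53.8% in windows listed with a single gene. With 2 libraries per group, and totals as low as 681047 counts, small differences were not detectable.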
